A study of Dicentrarchus labrax with 10 samples.

Results

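The gonads of 10 European sea bass juveniles at 170 dph were divided by the array signal of a single gene, amh, without regard to rearing temperature. The 5 fish of 10 with the highest amh values were chosen as high-amh and the other 5 as low-amh, so the groups were selected on measured values of these arrays. Anti-Müllerian hormone, the product of amh, is a secreted factor of the TGF-beta family. In vertebrates it is made by the Sertoli cells of the developing testis and, at lower levels, by the granulosa cells of the ovary, and it acts on germ cell proliferation and on the differentiation of somatic cells. The transcription factor dmrt1 is its usual companion as a marker of the male pathway in fish gonads. In the sea bass, sex depends on several genes and on water temperature in early life, and histological sex differentiation takes place around the age that was sampled here.

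The high-amh group held 4 HT fish (replicates 2 to 5) and 1 LT fish (replicate 2), and the low-amh group held 1 HT fish (replicate 1) and 4 LT fish (replicates 1, 3, 4 and 5). HT fish were kept at 21 °C and LT fish at 15 °C between 20 and 60 dph. All fish had been at 17 °C before, and the LT tank was then warmed to 21 °C, so both regimes were at the same temperature when the gonads were taken. All 10 fish are labelled putative females, because the study picked fish with high cyp19a1a levels by qRT-PCR from a larger random sample. Each regime occupied 1 tank. Tank, position on the slide and thermal regime therefore cannot be told apart, and the p-values describe the spread between fish of these tanks.

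RNA from a portion of the gonad of each fish was labelled with 1 dye and hybridised alone to a custom Agilent array with 43803 spots other than controls, which stand for 24200 probes. The median foreground intensity ranged from 95 to 234.5 on the high-amh arrays and from 130 to 201 on the low-amh arrays, over background medians of 18 to 21. Signal well above background was found for 69.2% to 90.8% of the probes on the high-amh arrays, against 73.6% to 86.4% on the low-amh arrays, and no spot was saturated. The number of arrays, 5 in each group, limits precision. The study set aside 1 HT fish as an outlier by principal component analysis and did not give its replicate number. All 10 fish were kept here. The low-amh HT fish, HT replicate 1, stood apart from the others. On the first principal component it lay at -129, against -37.4 to 55.2 in the other fish. Its array correlated at 0.843 on average with the other arrays, while each other array did so at 0.920 to 0.947, and the count of called probes is therefore also given without it, as are the calls of named sequences that change.

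The value that formed the groups was the scanner's processed signal of the amh probe CUST_20078, on a log2 scale and relative to the 75th percentile of the array. It was 4.78 in LT replicate 2, 4.66 in HT replicate 2, 4.36 in HT replicate 3, 4.28 in HT replicate 5 and 3.21 in HT replicate 4, the high-amh fish. In the low-amh fish it was 0.26 in LT replicate 1, -1.03 in LT replicate 4, -1.22 in LT replicate 5, -1.71 in LT replicate 3 and -3.17 in HT replicate 1. The mean was 4.26 ± 0.62 in the high-amh group and -1.38 ± 1.24 in the low-amh group (SD, n = 5 each). The fish on either side of the division, HT replicate 4 and LT replicate 1, differed by 2.95 on the log2 scale, a gap of 7.71-fold, which was wider than the range of 1.57 within the high-amh group and narrower than the range of 3.44 within the low-amh group. Both extremes crossed the thermal regimes, since the highest amh value belonged to an LT fish and the lowest to an HT fish. These values chose the groups and were not tested.

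The other probes of amh are likewise given as a description only. After quantile normalization the log2 intensity of a further probe of the same sequence, CUST_20079, was 11.4 to 12.7 in the high-amh fish and 6.91 to 8.21 in the low-amh fish, and that of CUST_20077 was 9.79 to 11.3 in the high-amh fish and 6.55 to 7.25 in the low-amh fish. Another sequence on the array that is also named amh differed far less between the groups. Its 3 probes lay between 6.44 and 6.91 in the high-amh fish and between 6.39 and 6.70 in the low-amh fish, and none of them was well above background in any low-amh fish. The groups overlapped for 2 of these probes and, by a narrow margin, not for CUST_1013. The plot of amh by fish shows both sequences on the same scale.

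**Figure D1:**
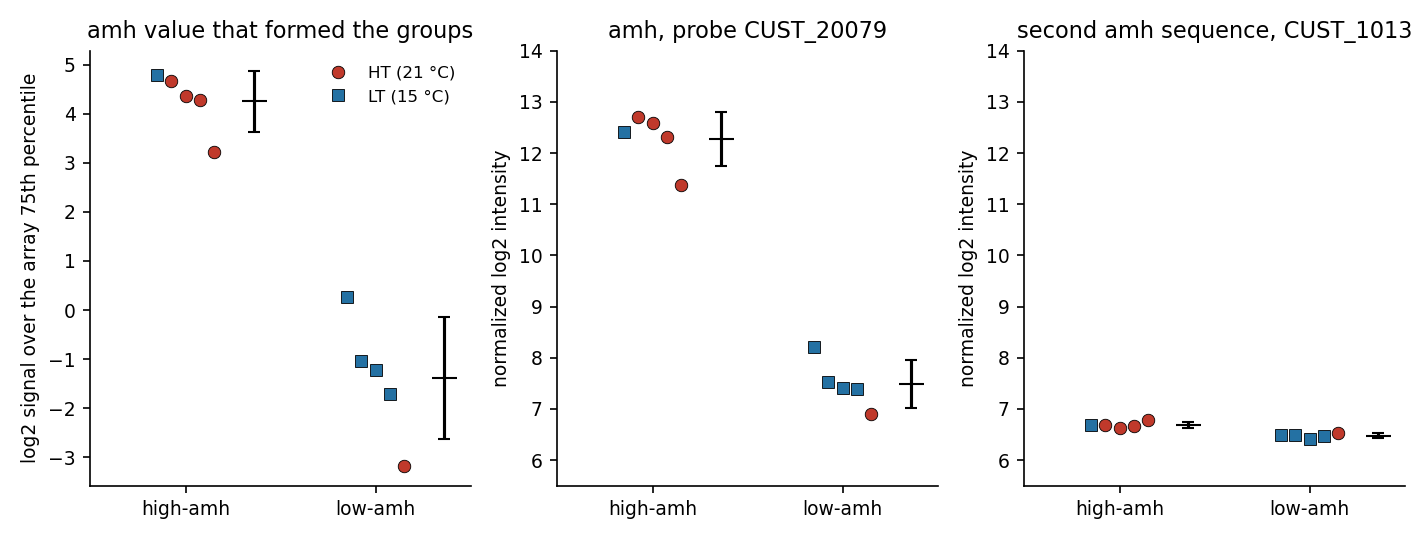
Signal of amh in each gonad, high-amh fish left and low-amh fish right, with HT fish as circles and LT fish as squares; bars give the mean ± SD of 5 fish. The left panel shows the log2 value over the 75th percentile of the array that formed the groups (3.21 or more against 0.26 or less), and the other panels show normalized log2 intensities of a second probe of that sequence and of a probe of the second amh sequence, which stayed between 6.42 and 6.78 in all fish.

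To find what else separated these gonads, the groups were compared over the 24197 probes outside the amh sequence of the rule. A probe was called at a Benjamini-Hochberg adjusted p below 0.05 from limma, a fold change above 1.2 and a reliable signal in all 10 fish. Of the 24197 probes, 535 were called (2.21%), 416 of them higher (1.72%) and 119 lower (0.492%) in high-amh gonads. They belonged to 363 sequences, 291 with a probe called higher and 72 with a probe called lower, and 0 sequences had probes called in both directions. The median log2 difference was 1.05 among the probes called higher, with a largest value of 4.40, and -1.37 among those called lower, with a largest fall of -4.84. More than a 2-fold change was seen in 218 probes called higher and 74 called lower. Over all 24197 probes the median log2 difference was 0.014, and 5029 probes (20.8%) had an unadjusted p below 0.05.

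The groups did not overlap for most of these probes, which their call between the same fish largely fixes. Every high-amh fish was above every low-amh fish for 410 of the 416 probes called higher, and below every low-amh fish for 115 of the 119 called lower, against 1023 (4.23%) and 703 (2.91%) of all probes compared. Nearly all of the called probes were measured in both groups, with 8 of those called higher not well above background in any low-amh fish and 4 of those called lower not well above background in any high-amh fish. Of the 6126 sequences that carried 3 probes, 201 had at least 1 probe called, 99 had 2 or 3 called and 65 had all 3 called. In 192 of the 201 all 3 probes differed in the same direction. The same share over all 6126 sequences was not computed. The median over probes of the SD within the group was 0.21 among high-amh fish and 0.30 among low-amh fish, or 0.21 among low-amh fish without HT replicate 1.

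The count was sensitive to single fish and to the slide. It was 902 without HT replicate 1, with 519 of the 535 probes among them, and 611 without LT replicate 3, 492 without LT replicate 5 and 483 without HT replicate 4, but it was 346, 330, 312, 299, 230 and 216 without LT replicate 2, HT replicate 5, LT replicate 4, LT replicate 1, HT replicate 2 and HT replicate 3. With the slide as a block, a fit in which 3 of the 5 slides hold both groups, 29 probes were called, 28 of them among the 535. Within these 3 slides, where a high-amh HT fish lay beside a low-amh LT fish, the median difference was 1.02, 1.02 and 0.95 for the probes called higher and -1.17, -1.30 and -0.92 for those called lower, and their direction is largely fixed by the lack of overlap between the groups.

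**Figure D2:**
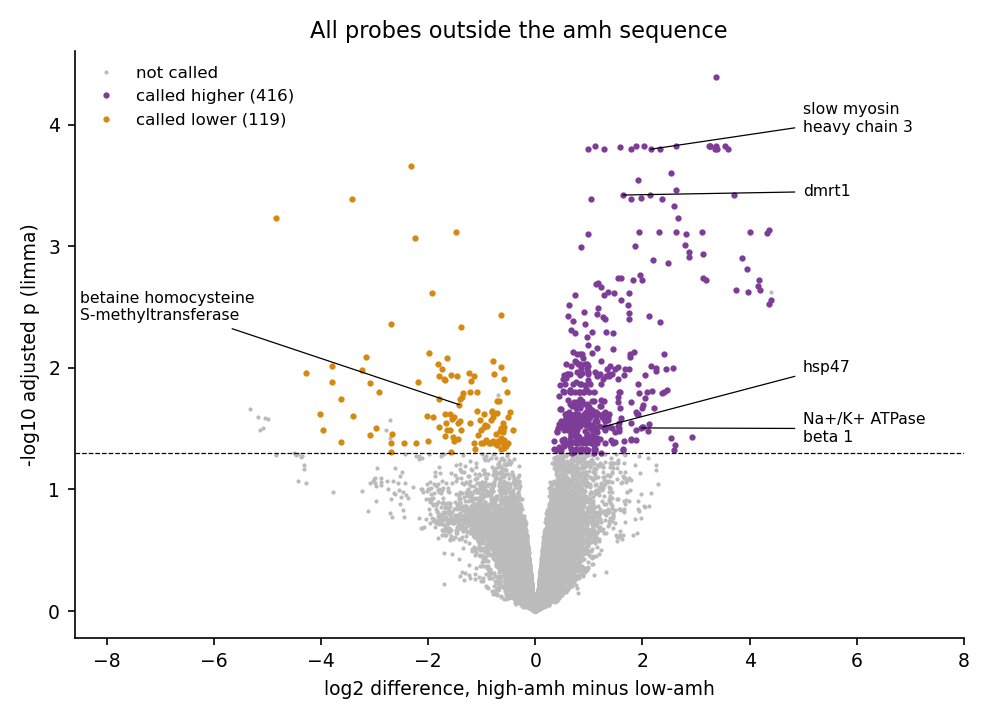
Each of the 24197 probes by its log2 difference (high-amh minus low-amh, x axis) and its -log10 adjusted p from limma (y axis), with the dashed line at 0.05. Purple points are the 416 probes called higher and orange points the 119 called lower in high-amh gonads, and the 5 called sequences with a gene name are marked.

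Gene names were known for 176 sequences, of which 174 outside both amh sequences were tested, each by its brightest probe. In this count 5 of the 174 were called (2.87%), against 287 of all 11704 sequences by their brightest probe (2.45%, with 1.91% higher and 0.538% lower), so named sequences were called about as often as the rest of the array. The 4 called higher were slow myosin heavy chain 3, the Na+/K+ ATPase beta 1 subunit, dmrt1 and hsp47, and the 1 called lower was betaine homocysteine S-methyltransferase. An unadjusted p below 0.05 was found for 40 of the 174 (23.0%), 15 of them higher and 25 lower in high-amh gonads, against 21.4% of the brightest probes of all sequences. The other 521 called probes have no gene name in the sources used here.

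Among genes of sex differentiation, dmrt1 was upregulated in high-amh gonads. Its brightest probe, CUST_10632, had a log2 intensity of 8.61 in LT replicate 2, 8.19 in HT replicate 2, 8.43 in HT replicate 3, 8.79 in HT replicate 5 and 8.42 in HT replicate 4. In the low-amh fish it was 7.06 in LT replicate 1, 6.95 in LT replicate 4, 6.63 in LT replicate 5, 6.58 in LT replicate 3 and 7.02 in HT replicate 1. All high-amh fish were thus above all low-amh fish. The LT fish with high amh lay within the range of the high-amh HT fish. The HT fish with low amh lay within the range of the low-amh LT fish. That these fish lay with their amh group is largely fixed by a call between these groups. The mean was 8.49 ± 0.23 in high-amh and 6.85 ± 0.23 in low-amh gonads (SD, n = 5 each), a log2 difference of 1.64 (standard error 0.14, 3.12-fold, adjusted p = 0.00038 from limma). An exact permutation test (two-sided) gave p = 0.00794, the smallest that 5 fish against 5 allow. That p is unadjusted and is shared by every probe without overlap between the groups. These were 1023 probes higher (4.23%) and 703 lower (2.91%) in high-amh gonads, so for called sequences it adds little to limma. CUST_10632 was well above background in all 5 high-amh fish and in 3 of the 5 low-amh fish. The log2 difference ranged from 1.55 to 3.61 over the alternatives, with the highest value when processed signals were scaled to their 75th percentile.

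The 2 other probes of dmrt1 differed by less. CUST_10631 lay between 7.18 and 7.84 in the high-amh fish and between 6.67 and 6.94 in the low-amh fish, and it was called (log2 difference 0.71, adjusted p = 0.0252 from limma). CUST_10630 lay between 6.63 and 7.13 in the high-amh fish and between 6.44 and 6.94 in the low-amh fish, and it was not called (0.41, adjusted p = 0.144). With the slide as a block the adjusted p of CUST_10632 was 0.04997 from limma, and within the slides that held both groups its difference was 1.85, 1.48 and 2.17.

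The other 6 sequences of the sex differentiation list were not called. The list had a median log2 difference of 0.032, against 0.033 for the brightest probes of all sequences. The wnt1 inducible signaling pathway protein 1 (wisp1), a secreted matrix protein of Wnt signalling, had 7.03 to 7.49 in the high-amh fish and 7.10 to 7.97 in the low-amh fish, with overlap through HT replicate 1 at 7.10. Its log2 difference was -0.42 (standard error 0.17, adjusted p = 0.20 from limma), and without HT replicate 1 it was called, at -0.56 (adjusted p = 0.0436). Aromatase B (cyp19b), the brain-type form of the enzyme that turns androgens into estrogens, had 9.30 to 10.3 in the high-amh fish and 8.68 to 10.1 in the low-amh fish (log2 difference 0.26, adjusted p = 0.674). Beta-catenin, the intracellular mediator of Wnt signalling, averaged 12.8 ± 0.41 in high-amh and 12.7 ± 0.17 in low-amh gonads, and DAX2 (NR0B1b), an orphan nuclear receptor, averaged 8.76 ± 0.32 in high-amh and 8.91 ± 0.37 in low-amh gonads. For SOX-8, a transcription factor related to the testis factor SOX9, the means were 6.90 ± 0.30 in high-amh and 6.88 ± 0.17 in low-amh gonads. Dmrt2b, a relative of dmrt1 with the same DNA-binding domain, averaged 6.66 ± 0.03 in high-amh and 6.63 ± 0.05 in low-amh gonads and was not well above background in any low-amh fish, with a difference of 1.46 (adjusted p = 0.0725) from the scaled processed signal. In the fit described here the adjusted p of these last 4 ranged from 0.685 to 0.956 in limma.

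None of the 6 sequences of the germ line and meiosis list was called by limma, 1 had an unadjusted p below 0.05, and the median log2 difference was 0.098. Over all sequences, by their brightest probe, 2.45% were called and 21.4% had such a p. The cytoplasmic polyadenylation element binding protein, which controls translation of stored mRNAs in oocytes, came nearest. It had 7.90 to 8.23 in the high-amh fish and 8.20 to 9.21 in the low-amh fish, a log2 difference of -0.63 with a standard error of 0.19 (limma, adjusted p = 0.122). The cold-shock domain protein, an RNA-binding protein, had 14.8 to 15.0 in the high-amh fish, against 13.7 in HT replicate 1 and 14.7 to 14.8 in the 4 low-amh LT fish (log2 difference 0.37, adjusted p = 0.317). The list also holds an SMC1 homolog, a subunit of cohesin, which is named as mitosis-specific. It had 9.27 to 9.75 in the high-amh fish and 9.06 to 9.60 in the low-amh fish (0.23, adjusted p = 0.321 from limma). The dazap2-like protein was at 10.6 in HT replicate 1 and at 12.4 to 12.8 in each of the other 9 fish, and dazap1 and the mismatch repair protein pms2 differed by -0.030 and -0.077, with adjusted p values of 0.903 and 0.742.

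The named sequence with the lowest adjusted p was slow myosin heavy chain 3, a motor protein of slow muscle fibres. Its brightest probe, CUST_20632, had a log2 intensity of 8.58 in LT replicate 2, 9.21 in HT replicate 2, 9.31 in HT replicate 3, 9.04 in HT replicate 5 and 8.72 in HT replicate 4. It was 6.79 in LT replicate 1, 6.81 in LT replicate 4, 6.86 in LT replicate 5, 6.52 in LT replicate 3 and 7.10 in HT replicate 1. The groups were separated by more than 1 on the log2 scale and the crossed fish lay with their amh group, which a call between these groups largely fixes. The means were 8.97 ± 0.31 in high-amh and 6.82 ± 0.21 in low-amh gonads (SD, n = 5 each), which gave a log2 difference of 2.16 (4.46-fold, standard error 0.16) and an adjusted p of 0.000159 in limma (exact two-sided permutation p = 0.00794). All 3 probes of the sequence were called, at 1.93 to 2.16, and the brightest was well above background in 4 of the 5 low-amh fish. Its log2 difference ranged from 1.90 to 4.36 over the alternatives, again highest with the scaled processed signal. With the slide as a block the adjusted p of CUST_20632 was 0.0554 from limma.

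No other sequence of the muscle list was called, and called probes without a gene name could not be checked for muscle genes. Of the 7 differences of the muscle list 5 were positive, at a median of 0.27, and 2 had an unadjusted p below 0.05 in limma. Only 1 of the 7 was called, slow myosin heavy chain 3 itself. Of all sequences 2.45% were called and 21.4% had such a p. The summed signal of the other 6 was 9.74 to 10.4 on the log2 scale in the high-amh fish and 9.70 to 10.1 in the low-amh fish, and it was highest in HT replicate 4. The skeletal muscle myosin heavy chain averaged 6.85 ± 0.13 in high-amh and 6.52 ± 0.06 in low-amh gonads (log2 difference 0.33, adjusted p = 0.0863 from limma) and was not well above background in any low-amh fish. Myosin light chain 1, myosin heavy chain and sarcoglycan gamma differed by 0.33, 0.27 and 0.23 (adjusted p = 0.677, 0.566 and 0.534 from limma). The 2 negative differences were those of obscurin, a giant protein of the sarcomere (-0.21), and cardiac myosin light chain 1 (-0.035). Obscurin was well above background in 2 fish of each group, and cardiac myosin light chain 1 in 3 high-amh and 4 low-amh fish. The part of muscle tissue in the slow myosin result was not tested.

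The Na+/K+ ATPase beta 1 subunit, a part of the pump that keeps the sodium and potassium gradients of the cell, was nearly constant among high-amh gonads and lower in all low-amh gonads. CUST_2073 had 12.4 in LT replicate 2 and 12.2 to 12.3 in the 4 high-amh HT fish. It had 10.8 in LT replicate 1, 10.3 in LT replicates 4 and 5, 11.5 in LT replicate 3 and 8.85 in HT replicate 1. The means were 12.3 ± 0.05 in high-amh and 10.3 ± 0.98 in low-amh gonads (SD, n = 5 each), which gave a log2 difference of 1.98 (3.94-fold, standard error 0.39) and an adjusted p of 0.0312 in limma (exact two-sided permutation p = 0.00794). All 3 of its probes were called, at 1.98 to 2.37. The call of CUST_2073 was lost when any fish but LT replicate 3 or HT replicate 1 was left out (adjusted p = 0.0575 to 0.0879) and with the slide as a block (0.484), at differences of 1.61 to 2.09 on the log2 scale.

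Hsp47, a chaperone of the endoplasmic reticulum that assists the folding of collagen, was upregulated as well. CUST_3016 had 9.90 in LT replicate 2, 9.83 in HT replicate 2, 9.61 in HT replicate 3, 9.52 in HT replicate 5 and 9.57 in HT replicate 4. It had 8.82 in LT replicate 1, 8.49 in LT replicate 4, 9.08 in LT replicate 5, 8.12 in LT replicate 3 and 7.60 in HT replicate 1. The groups did not overlap, and the highest and the lowest value again came from the 2 fish whose amh group crosses their regime. The means were 9.69 ± 0.17 in high-amh and 8.42 ± 0.58 in low-amh gonads (SD, n = 5 each), which gave a log2 difference of 1.26 (2.40-fold, standard error 0.25) and an adjusted p of 0.0306 in limma (exact two-sided permutation p = 0.00794). A further probe was called at 1.23 and the third was not, at 1.14. The call of CUST_3016 was lost when any fish but LT replicate 1, LT replicate 5 or HT replicate 1 was left out (adjusted p = 0.0541 to 0.0910) and with the slide as a block (0.518).

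Betaine homocysteine S-methyltransferase, which remethylates homocysteine to methionine and in mammals is best known from liver and kidney, was the downregulated member of the 5. CUST_17692 had 10.2 in LT replicate 2 and 9.94, 9.67, 9.56 and 9.60 in HT replicates 2, 3, 5 and 4. It had 10.7 in LT replicate 1, 10.8 in LT replicate 4, 11.2 in LT replicate 5, 11.99 in LT replicate 3 and 11.5 in HT replicate 1. Every high-amh fish was below every low-amh fish, and LT replicate 2 was the highest of its group. The means were 9.80 ± 0.28 in high-amh and 11.2 ± 0.54 in low-amh gonads (SD, n = 5 each), which gave a log2 difference of -1.42 (2.67-fold lower, standard error 0.25) and an adjusted p of 0.0201 in limma (exact two-sided permutation p = 0.00794), and the second probe was called at -1.40. The call of CUST_17692 was lost without HT replicate 2, 3 or 5 (adjusted p = 0.0534 to 0.0659) and with the slide as a block (0.193).

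The 3 other liver genes differed in their spread between fish of the same group. The SD in high-amh and low-amh gonads was 1.32 and 1.47 for apolipoprotein AI and 0.35 and 2.62 for phosphoenolpyruvate carboxykinase. For apolipoprotein B it was 0.35 and 0.21. The summed signal of the 3 was 8.84 to 10.7 on the log2 scale in the high-amh fish and 8.31 to 13.2 in the low-amh fish. It was highest in LT replicate 3, the fish with the most betaine homocysteine S-methyltransferase, and lowest in HT replicate 1, which had the second most. None of the 3 was called or had an unadjusted p below 0.05 in limma, and the part of liver tissue in the result was not tested. The 5 gut and pancreas sequences, such as elastases and mucins, included 0 called and 0 with an unadjusted p below 0.05, against 2.45% and 21.4% of all sequences. They summed to 9.43 to 10.5 in the high-amh fish and 9.63 to 10.1 in the low-amh fish. In whole gonads, fewer cells of a type and less RNA per cell cannot be told apart for any of these genes.

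**Figure D3:**
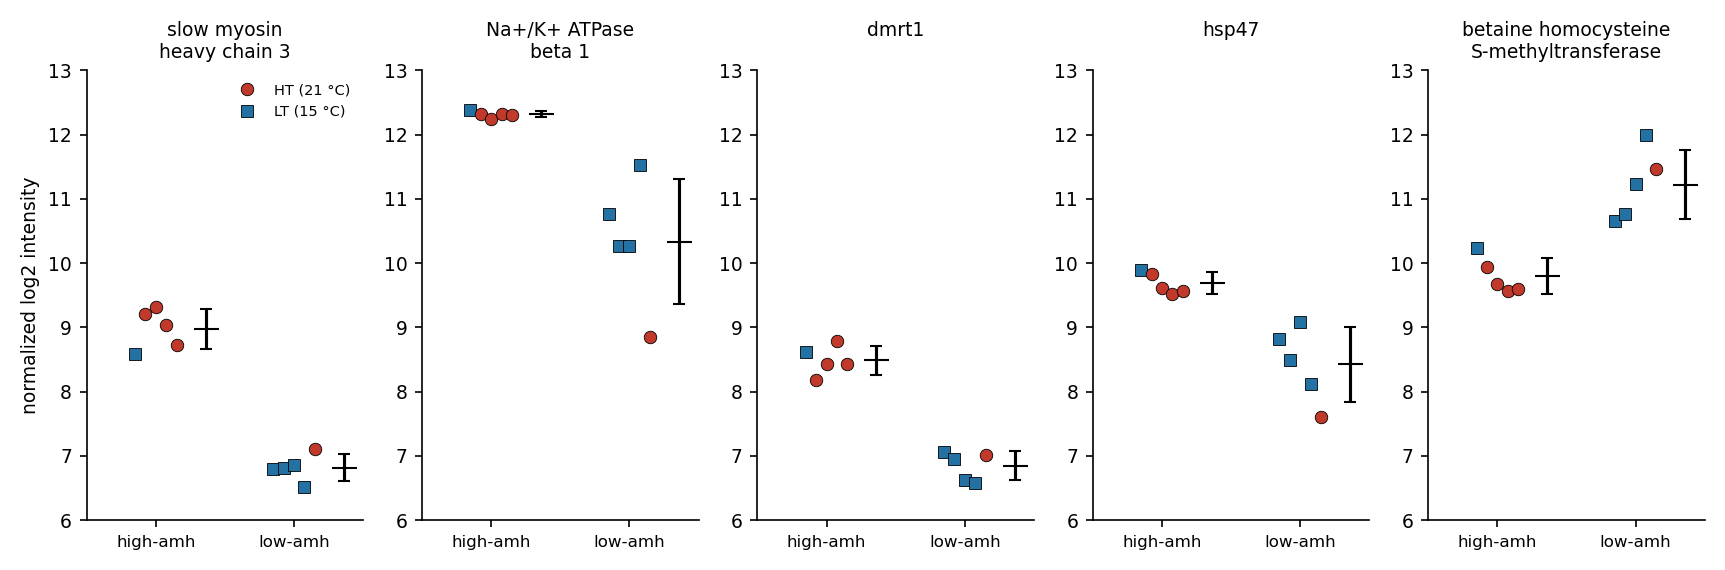
Normalized log2 intensity of the 5 named sequences called between the groups, high-amh fish left and low-amh fish right, with HT fish as circles and LT fish as squares; bars give the mean ± SD of 5 fish. In each panel the groups do not overlap, which the call between them largely fixes, with differences of 2.16, 1.98, 1.64, 1.26 and -1.42.

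Some named sequences stood close to the threshold and are given here after their values were seen. Ependymin, a secreted glycoprotein first known from fish brain, was called by 2 of its 3 probes, CUST_16190 (8.36 to 8.89 in the high-amh fish and 6.95 to 7.86 in the low-amh fish, log2 difference 1.05, adjusted p = 0.0186 from limma) and CUST_16191 (0.95, adjusted p = 0.0294), but not by its brightest probe CUST_16189 (0.97, adjusted p = 0.0754). U2AF1-RS2, a relative of a splicing factor subunit, had the largest difference of the named sequences. CUST_90 had 7.06 to 7.62 in 4 high-amh fish and 11.1 in HT replicate 5, against 11.2 to 14.2 in the 4 low-amh LT fish and 16.1 in HT replicate 1. Its log2 difference was -5.14 (standard error 1.04, adjusted p = 0.0325 from limma), but it was not called because its signal was not reliable in every fish. Without HT replicate 1 it was called (-4.43, adjusted p = 0.0291). Carbonic anhydrase, which interconverts carbon dioxide and bicarbonate, had a like order of fish, with 6.94 to 7.92 in 4 high-amh fish and 10.1 in HT replicate 5, against 10.4 to 13.4 in the 4 low-amh LT fish and 15.5 in HT replicate 1 (CUST_17664, log2 difference -4.44, standard error 0.99, adjusted p = 0.0508). It was called without HT replicate 1 (-3.64, adjusted p = 0.0323 from limma). With temperature in the model 3 of its 4 probes were called, as were 5.62% of all probes. For both sequences the high-amh fish were all below the low-amh fish, although HT replicate 5 came within 1 on the log2 scale of the nearest of them.

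The other lists held few called sequences, and so did the array. By the brightest probe of each sequence, 2.45% of all 11704 sequences were called and 21.4% had an unadjusted p below 0.05 in limma. Whether any list differed from these shares was not tested. The list of water, ion and acid-base transport had 1 of 6 sequences called, the Na+/K+ ATPase beta 1 subunit, and a median of -0.22, with the alpha subunit of the same pump at -0.19 (adjusted p = 0.813 from limma) and aquaporin 1, a water channel, at -2.14 (standard error 0.86, adjusted p = 0.208). Of the 12 heat shock and chaperone sequences 1 was called, hsp47, and 8 had a negative difference, at a median of -0.10. The 5 proteasome and ubiquitin sequences had a median of -0.35, the 5 sequences of Ran-dependent nuclear transport -0.33, the 8 of splicing and RNA binding -0.26 and the 8 of chromatin -0.18, with 0 called by limma and 2, 4, 1 and 0 at an unadjusted p below 0.05. A negative difference was found for 4, 4, 7 and 6 of their sequences, against 5279 of the 11704 sequences on the array. The proteasome subunit alpha, a part of the core that degrades proteins, averaged 12.3 ± 0.27 in high-amh and 12.9 ± 0.55 in low-amh gonads (adjusted p = 0.218), and Ran, the GTPase that gives nuclear transport its direction, averaged 13.1 ± 0.25 in high-amh and 13.8 ± 0.64 in low-amh gonads (adjusted p = 0.220). The 9 translation sequences, with elongation factor 1 alpha at -1.47 (standard error 0.38, adjusted p = 0.0811), had a median of 1.07e-05 and the 15 of mitochondrial energy metabolism -0.016, with 0 called and 5 and 3 at an unadjusted p below 0.05. Elongation factor 1 alpha, which brings aminoacyl-tRNA to the ribosome, was called without HT replicate 1 (-1.82, adjusted p = 0.00389). With temperature in the model 688 of all 11704 sequences were called by their brightest probe. In that model 2 translation sequences were called, eukaryotic translation initiation factor 2B (-1.36) and basic transcription factor 3-like 4 (0.99). The lists of lipid transport and synthesis, cytoskeleton and matrix, antioxidant defence, immune and lectin genes and immediate early genes had medians of -0.039, 0.025, -0.20, 0.26 and 0.33, with 0 called sequences and 2, 3, 0, 0 and 0 at an unadjusted p below 0.05. With temperature in the model acetyl-CoA acetyltransferase 2 of the lipid list (-1.29) and tubulin delta 1 of the cytoskeleton list (-2.60) were among the 688 called sequences. Of the 8 immune and lectin sequences 7 had a positive difference, the largest in cathepsin H, a lysosomal protease, which averaged 11.3 ± 0.22 in high-amh and 10.3 ± 1.24 in low-amh gonads (0.97, adjusted p = 0.293).

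**Figure D4:**
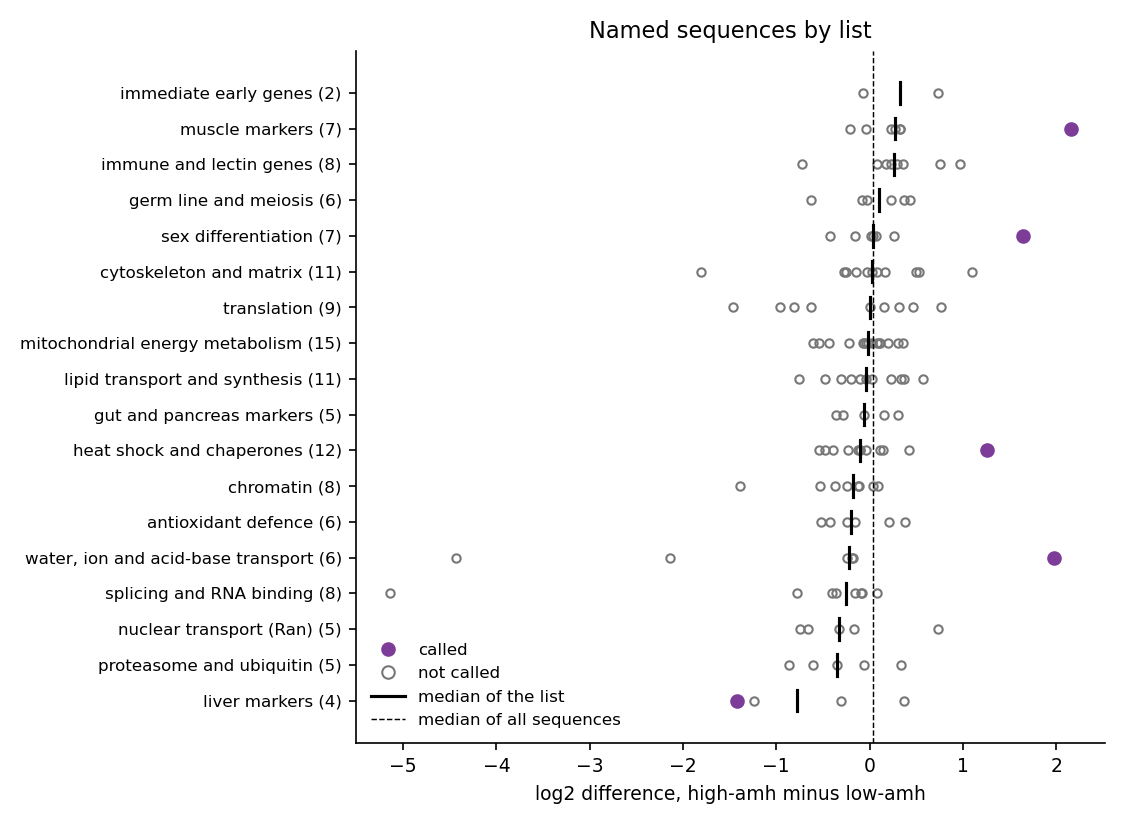
Log2 difference (high-amh minus low-amh, x axis) of the named sequences that belong to a list, with the number of sequences of the list in parentheses. Named sequences outside the lists are not shown. Filled points were called and open points were not. Thick marks are the medians of the lists and the dashed line is the median of all sequences (0.033). The 5 filled points lie in 5 different lists.

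The lowest adjusted p values on the array belonged to sequences with no gene name, and CUST_2025_PI415922062 had the lowest of all. It had 10.2 to 11.0 in the high-amh fish, with LT replicate 2 at 10.2, and 6.97 to 7.41 in the low-amh fish, with HT replicate 1 at 7.01, a log2 difference of 3.37 (standard error 0.17, 10.3-fold, adjusted p = 4.12e-05 from limma). CUST_21268_PI416070213 had 8.76 to 9.03 in the high-amh fish and 6.79 to 7.26 in the low-amh fish (1.88, standard error 0.12, adjusted p = 0.00015). In both, the 2 groups were more than 1 apart on the log2 scale and neither crossed fish left its amh group. This is largely fixed by the choice of the probes with the lowest adjusted p between these same groups.

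Among the downregulated probes with no gene name, CUST_3243_PI415922062 had 7.35 to 7.93 in the high-amh fish and 9.27 to 10.2 in the low-amh fish, a log2 difference of -2.32 (standard error 0.19, adjusted p = 0.000218 from limma). CUST_5609_PI415922062 had 7.76 to 8.52 in the high-amh fish and 10.2 to 11.8 in the low-amh fish (-3.42, standard error 0.31, 10.7-fold lower, adjusted p = 0.000413). In the low-amh group HT replicate 1 was the highest fish for CUST_3243_PI415922062 and the lowest for CUST_5609_PI415922062. With the slide as a block the adjusted p of these 4 probes was 0.0194, 0.0265, 0.0194 and 0.0554 from limma, so that CUST_5609_PI415922062 lost its call.

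The amh group and temperature were also entered together in models with both terms. The amh groups were chosen on values of these same arrays and the thermal regimes were not. The counts called for each therefore cannot be weighed against each other. In the 8 fish that are both high-amh and HT or both low-amh and LT, amh group and thermal regime cannot be told apart. These models therefore rest on LT replicate 2 and HT replicate 1. With temperature in the model 1359 probes were called for the amh group (5.62%), 777 higher (3.21%) and 582 lower (2.41%) in high-amh gonads. They included 415 of the 535 probes called without it, which is 77.6% of the smaller list and 30.5% of the larger. All 535 kept their sign, which the lack of overlap between the groups largely fixes. In the same model 0 probes (0.0%) were called for temperature by limma. The lowest adjusted p was 0.292, and 3704 of the 24197 probes had an unadjusted p below 0.05. The 5029 probes (20.8%) counted for the amh group came from the model without temperature, so these counts cannot be compared. A like count for the amh group with temperature in the model is not given here. The number of probes called for the amh group with temperature in the model depended on single fish. It was 87 without HT replicate 1, 7154 without LT replicate 2, 2430 without LT replicate 3 and 608 without HT replicate 4. It was 372, 361, 294, 201 and 200 without LT replicate 4, LT replicate 1, HT replicate 5, HT replicate 2 and HT replicate 3. It was 0 with the slide as a block, at 1748 of the 24197 probes with an unadjusted p below 0.05.

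The 5 called named sequences kept their calls with temperature in the model. The log2 difference of dmrt1 was then 1.62 (standard error 0.19, adjusted p = 0.00349 from limma), that of slow myosin heavy chain 3 was 1.90 (0.16, adjusted p = 0.00108) and that of the Na+/K+ ATPase beta 1 subunit 2.56 (0.41, adjusted p = 0.0173). For hsp47 it was 1.65 (0.25, adjusted p = 0.0145) and for betaine homocysteine S-methyltransferase -1.35 (0.33, adjusted p = 0.0484). Within each regime the differences rest on a single fish of one group. LT replicate 2 exceeded the mean of the other 4 LT fish by 1.81 for dmrt1 and 1.83 for slow myosin heavy chain 3, and the other 4 HT fish exceeded HT replicate 1 by 1.44 and 1.97. The sign of these differences is largely fixed, since the sequences were called between groups that hold both fish.

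A further comparison left the crossed fish out of the call and then looked at them. Between the 4 high-amh HT and the 4 low-amh LT fish 705 probes were called (2.91%), 475 higher (1.96%) and 230 lower (0.951%). For the 475 probes called higher, LT replicate 2 lay above HT replicate 1 in 448 (94.3%), against 65.7% of all probes whose mean was higher in the 4 high-amh HT fish. LT replicate 2 was nearer to the mean of the high-amh HT fish in 385 (81.1%, against 48.8% of such probes), and HT replicate 1 was nearer to that of the low-amh LT fish in 443 (93.3%, against 69.5%). The median difference of these 475 probes was 0.98 between the 8 fish and 1.31 between LT replicate 2 and HT replicate 1. By median, LT replicate 2 exceeded the other LT fish by 0.80, and the other HT fish exceeded HT replicate 1, the array apart from the rest, by 1.53.

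For the 230 probes called lower, LT replicate 2 lay on the high-amh side in 190 (82.6%, against 53.7% of all probes with the lower mean in the 4 high-amh HT fish). HT replicate 1 lay on the low-amh side in 114 (49.6%, against 62.6%). LT replicate 2 lay below HT replicate 1 in 167 of the 230 (72.6%, against 61.9%). The median difference of these 230 probes was -1.16 between the 8 fish and -0.63 between LT replicate 2 and HT replicate 1. It was -1.01 for LT replicate 2 minus the other LT fish and -0.73 for the other HT fish minus HT replicate 1. The difference between the amh groups also differed between the regimes for 1130 probes (4.67%) by a test of that difference in limma, with a more positive difference among HT fish in 557 (2.3%) and a more negative one in 573 (2.37%). Of these, 21 were among the 535 probes called between the groups. Since the test sets 1 LT fish against 4 and 4 HT fish against 1, these fish and the regimes cannot be told apart.

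**Figure D5:**
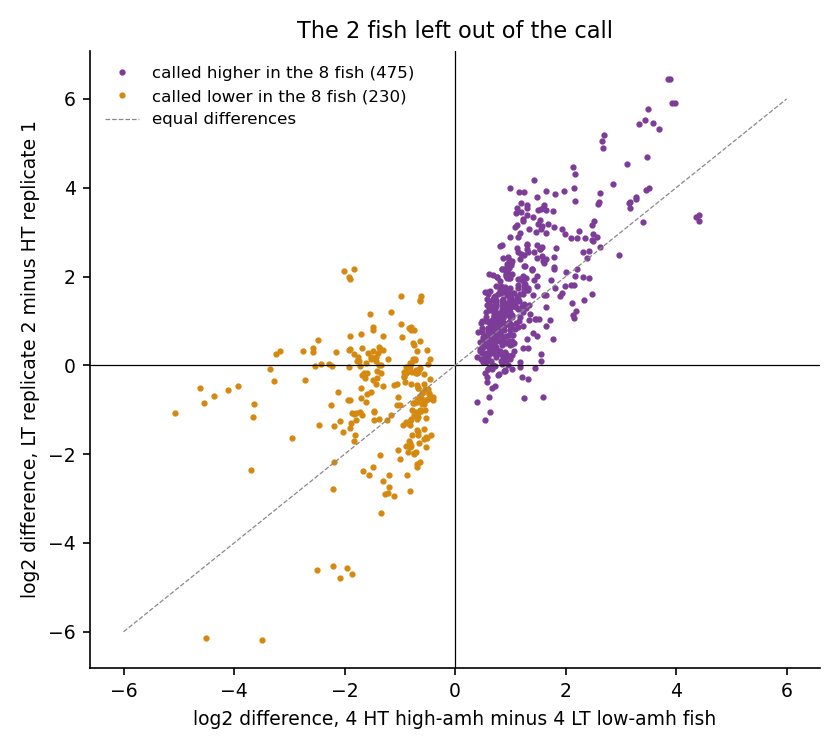
Log2 difference between the 4 high-amh HT and the 4 low-amh LT fish (x axis) and between LT replicate 2 (high-amh) and HT replicate 1 (low-amh, y axis) for the 705 probes called between the 8 fish. Purple points were called higher and orange points lower, and the dashed line marks equal differences; 448 of the 475 purple points lie above 0 on the y axis and 167 of the 230 orange points below it.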

How the data were processed

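For every array the authors deposited its scanner output, in which each spot has intensity values (foreground, background, processed) and flags (Agilent Feature Extraction 10.7.3.1, per the file headers), and a table of normalized log2 values with 21701 probes, whose columns correlated at 0.9985 to 0.9996 with their own arrays. Background was corrected by normexp (offset 50), arrays were quantile normalized, unflagged spots of a probe were averaged, and limma 3.58.1 (R 4.3.3) compared the groups. Median foregrounds were used, since the files hold no mean foreground. A probe was reliable where at least 50% of its spots had a foreground of at least 2 times the background and were neither saturated nor flagged. The fit was tested on simulated data.

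Fish were grouped by amh and samples by the thermal regime in their labels. Groups, lists and members were chosen with earlier results of these data known. Gene names came from a table of the study that pairs 176 probes with names. Of the probe names and sequence identifiers 0 matched the gene table of the dlabrax2021 assembly, which was not used here, so lists of gonad cell types, germ cells and blood could not be built. Named genes were the sequences of the sex differentiation and germ line lists, the up to 10 largest differences in each direction among other called named sequences (4 in all), and the 2 called probes without a name with the lowest p in each direction. Sequences correlated with amh were not sought, because its values fall into separate clusters. No probe sequence was given in the sources used here. Columns of fold changes in the study's tables were not used.

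Arrays of the same replicate number shared a slide according to the file headers, which is where the pairing comes from. Deviations from the amh group means, compared between both arrays of a slide, had correlations of -0.41, -0.25, -0.062, 0.21 and -0.12 on slides 1 to 5. Alternatives were an offset of 0, percentile and cyclic loess scaling, the deposited table, reliable probes only, flagged spots kept, the slide as a block, temperature as a covariate, trended robust variances, array weights, groups from normalized amh, leaving out fish, and other fold or reliability limits. Leaving out both crossed fish was added after seeing the data. Versions of Python and matplotlib were 3.11.15 and 3.10.9.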

Additional observations from a re-analysis of the deposited data

Results flagged for a closer look

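Among 52 groups of 5 values examined (named genes and probes, array measures and components), 7 held a fish far from the other 4, where chance gives about 1 in 20. In the high-amh group HT replicate 4 stood apart for SOX-8, at 7.44 against 6.73 to 6.80 in the other 4, for CUST_5609_PI415922062, at 8.52 against 7.76 to 7.95, and for the mean correlation with all other arrays, at 0.920 against 0.945 to 0.947. In the low-amh group HT replicate 1 stood apart for the dazap2-like protein, at 10.6 against 12.4 to 12.8, for the cold-shock domain protein, at 13.7 against 14.7 to 14.8, for CUST_5609_PI415922062, at 10.2 against 11.6 to 11.8, and for the mean array correlation, at 0.843 against 0.929 to 0.947.

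The difference between the amh groups was not the same in both regimes for 3 of the named genes and probes, by the test of that difference in limma. For the dazap2-like protein it was 2.14 among HT and -0.25 among LT fish, 2.39 apart (adjusted p = 0.0102). For the cold-shock domain protein it was 1.22 among HT and 0.17 among LT fish, 1.05 apart (adjusted p = 0.0270), and for CUST_5609_PI415922062 it was -2.17 among HT and -3.87 among LT fish, 1.70 apart (adjusted p = 0.0477). Each of these values sets HT replicate 1 alone against the other HT fish and LT replicate 2 alone against the other LT fish. For all 3, HT replicate 1 was also the fish flagged above in the low-amh group, so they largely repeat that array. The share of all probes called by this test is given with the crossed fish.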

How the results depend on the processing

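For the count of 535 probes, fits with the slide as a replicate block called 29, percentile scaling of the processed signal 1031 and of the normexp signal 355, the temperature covariate 1359, array weights 3224 (534 of the 535 among them), a fold above 2 292, and leaving out both fish nearest the division 260. Single fish left out gave 216 to 902. With both crossed fish left out it was 705. Both percentile scalings moved the median of all probes to 0.39 and 0.21. With temperature in the model (1359), an offset of 0 called 2156, cyclic loess 2505 (979 higher, against 777 of 1359), the slide as a replicate block 0, array weights 20 and leaving out both fish nearest the division 247, and single fish left out gave 87 to 7154. The 5 called named sequences and the 4 probes without a name kept their direction under all 24 alternatives. Where fish were left out or temperature was added, the lack of overlap between the groups fixes that direction. Percentile scaling of the processed signal gave 3.61 for dmrt1 (1.64 before), 4.36 for slow myosin heavy chain 3 (2.16), 3.61 for CUST_21268_PI416070213 (1.88) and 5.04 for CUST_2025_PI415922062 (3.37). Dmrt1 kept its call in all 24, with adjusted p from limma of 0.000117 to 0.04997, slow myosin heavy chain 3 in 23, betaine homocysteine S-methyltransferase in 20, and hsp47 and the Na+/K+ ATPase beta 1 subunit in 14 each. Percentile scaling of the processed signal ended the call of hsp47 (adjusted p = 0.0598), and leaving out both fish nearest the division ended those of hsp47 (0.0792) and the Na+/K+ ATPase beta 1 subunit (0.102). Wisp1 was called with array weights (-0.53, adjusted p = 0.0109).

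Sign changes concerned 5 sequences that were never called. SOX-8 was at -0.011 with cyclic loess, -0.030 with the slide block, -0.094 with array weights, -0.16 without both fish nearest the division, -0.0020 without both crossed fish and -0.12 to 0.059 with single fish left out. Aromatase B was at -0.018 with the slide block and -0.14 with array weights. Beta-catenin was at -0.051 with cyclic loess, -0.20 with the slide block and -0.056 to 0.21 with single fish left out. Dazap1 was at 0.085 and 0.0073 with the percentile scalings, 0.100 with temperature and -0.11 to 0.042 with single fish left out. Pms2 was at 0.23 and 0.20 with the percentile scalings and 0.042 with temperature. With both percentile scalings dazap1 and pms2 stayed below the median of all probes, which these scalings had moved up as given above. Medians of the lists moved by more than the spread between fish in 16 of 432 cases. The cause of these changes was not tested. Signals near background, such as those of dmrt1 in low-amh fish, limit the folds of dim probes.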

Other observations

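Grouped by the start of their sequence identifiers, whose meaning is not given in the sources used here, between 0.731% of 1095 probes (cDN23) and 3.21% of 872 probes (cDN34) were called. These shares count probes, several of which can belong to 1 sequence, and they were not tested.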
